A study of Homo sapiens with 8 samples.

Results

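The genes described here encode the collagen IV and laminin chains of the basement membrane and the proteins that join them: COL4A1, COL4A2, LAMA3, LAMA5, LAMB1, LAMB3, LAMC1, NID1 and HSPG2. They were found by gene name among 43317 genes on the array, and all 16 of their 60-base probes were read. The 9 genes were chosen by their treated over mock ratios on these arrays and by their mock levels in the cell lines, so their values are given as a description and were not tested.

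Basement membranes are thin sheets of matrix under epithelia and around vessels, muscle and nerve. Collagen IV is a trimer that assembles into a covalently crosslinked network, and its commonest form is built from the chains encoded by COL4A1 and COL4A2. Laminins are cross-shaped trimers of an α, a β and a γ chain that bind integrins and dystroglycan on the cell. Nidogen, encoded by NID1, and the heparan sulfate proteoglycan perlecan, encoded by HSPG2, bridge the laminin and collagen networks. In carcinomas the basement membrane is the layer that invading cells cross.

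RNA was measured on 8 two-colour Agilent arrays, each with Cy3-labelled mock RNA and Cy5-labelled RNA of treated cells of the same line. PC3, a prostate cancer line, was given bisamide for 24 h, bisamide for 48 h, or miR-125b-1-3p. Bisamide is a small molecule that binds the nuclear protein pirin and inhibits the heat shock factor pathway. C4-2, an androgen-independent prostate cancer line derived from LNCaP, was given miR-199-3p. The renal cancer line 786-O was given miR-532-5p or miR-532-3p, and the bladder cancer line T24 was given miR-140-5p or miR-140-3p. The miRNAs were transfected with a lipid reagent, whereas the labels list the mocks as untransfected. Each group had 1 array, no array had its dyes swapped, and all were read in 1 scan. No treatment was therefore replicated, which bounds the precision of every ratio. The labels give no dose, and no time for the miRNAs or mocks.

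The mature sequences of the transfected strands are shown because each array is named by one of them. They are those of RefSeq on GRCh38.p14, with the seed, bases 2 to 8, in capitals. The label miR-199-3p was matched to miR-199a-3p and miR-199b-3p, which have the same mature sequence.
miR-140-5p: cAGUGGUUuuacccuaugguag
miR-140-3p: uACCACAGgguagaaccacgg
miR-125b-1-3p: aCGGGUUAggcucuugggagcu
miR-532-5p: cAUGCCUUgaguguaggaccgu
miR-532-3p: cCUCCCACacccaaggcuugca
miR-199-3p: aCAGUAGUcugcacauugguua
No seed was shared between these 6 strands. Both strands of miR-140 come from 1 hairpin on chromosome 16, at chr16:69933103-69933124 and chr16:69933142-69933162 of the plus strand. The reverse complement of the miR-140-5p seed, AACCACT, was in 0.436% of all 58201 probes and in none of the 16 probes of the 9 genes. That of the miR-140-3p seed, CTGTGGT, was in 0.607% of all probes and in 1 of the 16, the probe that stands for HSPG2. The seeds of the other 4 strands had no match in the 16 probes. A probe covers 60 bases of a transcript, and the rest of the transcripts was not searched.

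A gene was counted as measured where its brightest probe was well above background in both channels, by the scanner's flags. Between 15442 and 19241 genes were measured on an array. All 9 genes were measured on 7 arrays, and 6 of them on the C4-2 array. COL4A1 and LAMB3 were well above background there in Cy5 alone, and NID1 in neither channel. Repeated spots of a probe had a median SD of 0.0389 to 0.0527 on the log2 scale, a spread within the array that leaves out the one between cultures. A log2 ratio of 1.0 in size, a change of 2-fold, was taken as the threshold for a count.

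COL4A2 gave the only values past this threshold. Of the 17624 genes measured in T24 with miR-140-5p it was the lowest, and it ranked 1 to 14 from the lowest under other ways of normalizing. In PC3 with miR-125b-1-3p it was the 10th highest of 18693, and ranked 6 to 49 from the highest under the others. COL4A1, its neighbour on the chromosome, was also under its mock on the first of these arrays, though above it at 0.15 with median centring in place of loess, and above its mock on the second, at a smaller size. Of the laminin genes, LAMC1 had ratios of −0.56 with miR-140-5p and 0.86 with miR-199-3p. LAMB3 was above its mock on all 7 arrays that measured it.

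**Figure D1:**
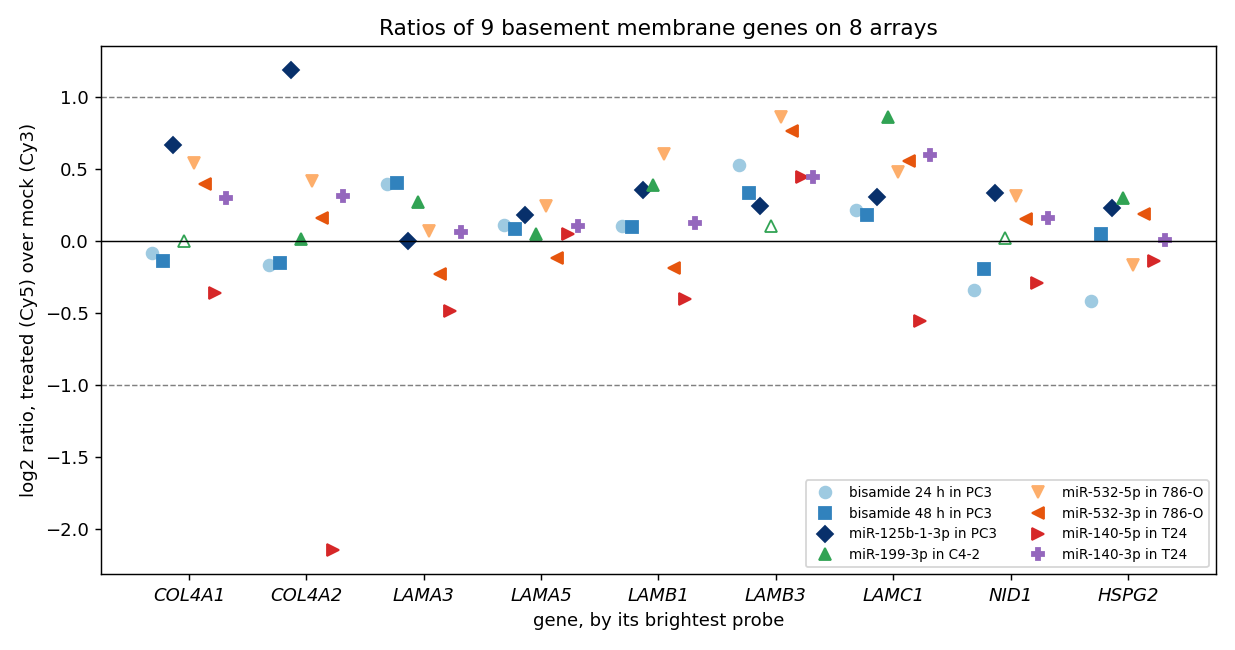
Log2 ratio of treated (Cy5) over mock (Cy3) RNA for each of the 9 genes, by its brightest probe, with 1 point per array; open points were not well above background in both channels, and dashed lines mark the threshold of 1.0. COL4A2 lies at −2.15 with miR-140-5p and at 1.19 on the miR-125b-1-3p array, and every other point lies between the dashed lines.

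COL4A2 encodes the α2 chain of collagen IV. Its probe lies at chr13:111165261-111165320 of GRCh37, on the plus strand. In T24 its raw signal was 2013 in the mock and 761.7 in cells given miR-140-5p. On the other T24 array it was 2073 in the mock and 5124 in cells given miR-140-3p. The readings of the mock were thus close together and those of the treated cells far apart. After normalization the log2 ratio was −2.15 for the 5p strand, or 4.44-fold lower than the mock, and 0.31 for the 3p strand. In PC3 the raw signal was 788 in the mock and 3183 with miR-125b-1-3p, and the log2 ratio was 1.19, or 2.28-fold higher. On the bisamide arrays COL4A2 read 909 in the mock and 1451 in treated cells at 24 h, and 1015 and 1637 at 48 h. The loess step, which takes out a dye difference that changes with brightness, set these ratios at −0.17 and −0.16, and median centring at 0.58 and 0.61, so their direction depends on that step. In 786-O the ratios were 0.42 and 0.16 with the 5p and 3p strands of miR-532. In C4-2 the probe was dim, with raw signals of 45.26 and 54.98, and its ratio was 0.012. The other 6 values thus lay between −0.17 and 0.42. With median centring COL4A2 was at 1.24 on the miR-140-3p array, past the threshold, and at 0.69 on the miR-532-3p array, beside −1.40 and 1.90 on the arrays of miR-140-5p and miR-125b-1-3p.

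COL4A1 encodes the α1 chain, which makes up most of the same trimer. Its probe lies at chr13:110802347-110802406 of GRCh37, on the minus strand. In T24 it read 247.8 in the mock and 285.8 with the 5p strand of miR-140, and 241.1 and 503 with the 3p strand. The log2 ratios were −0.36 and 0.30, or 0.15 and 0.93 with median centring, so the sign for the 5p strand depends on that step. In PC3 it read 63.85 in the mock and 174.6 with miR-125b-1-3p, a ratio of 0.67, and it was the 104th highest of the measured genes. For bisamide the ratios were −0.082 at 24 h and −0.14 at 48 h, and 0.29 and 0.25 with median centring. In 786-O they were 0.54 for miR-532-5p and 0.39 for the 3p strand. COL4A1 and COL4A2 had the same sign on each of the 7 arrays that measured both, with COL4A1 at the smaller size on 5 of them, but with median centring their signs were opposite on the miR-140-5p array.

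The COL4A1 probe was dim in PC3, where the offset of the background correction pulls ratios towards 0. With an offset of 0, COL4A1 reached 1.04 with miR-125b-1-3p, and the scanner's own ratio gave 1.08. With miR-140-5p these settings gave −0.47 and −0.46, against −2.23 for COL4A2 by either.

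**Figure D2:**
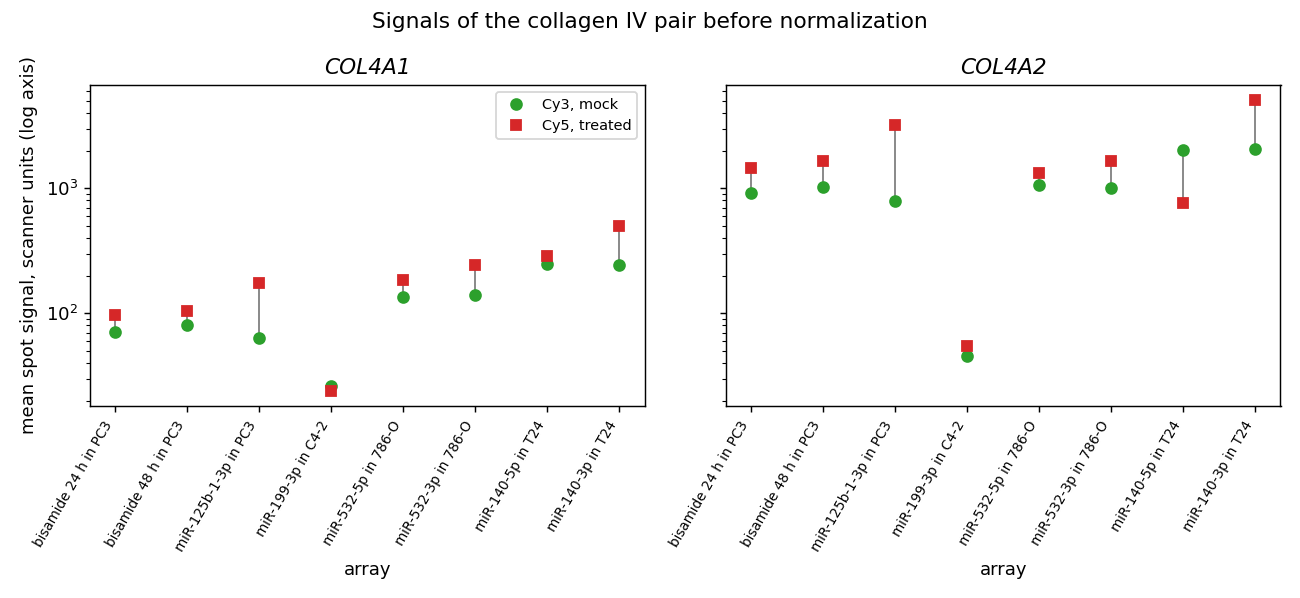
Mean spot signal of COL4A1 and COL4A2 in scanner units, on a log axis, for the mock (Cy3, circles) and treated (Cy5, squares) RNA of each array, before any normalization. For COL4A2 the treated signal lies under the mock signal with miR-140-5p, 761.7 against 2013, and on the 7 other arrays it lies above it.

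The genes COL4A1 and COL4A2 lie head to head and are read in opposite directions. In the RefSeq annotation of GRCh38.p14 the first base of COL4A1 is at 110307157 on the minus strand and that of COL4A2 at 110307284 on the plus strand. The 126 bases between them are shown because both genes start from them. They lie at chr13:110307158-110307283 and are given on the plus strand, with matches to CCAAT and to GGGCGG in capitals.
COL4A1 to COL4A2: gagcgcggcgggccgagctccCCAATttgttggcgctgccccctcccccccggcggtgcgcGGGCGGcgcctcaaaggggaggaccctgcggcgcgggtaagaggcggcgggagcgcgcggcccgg
The stretch held 80.2% G and C, against a median of 60.3% over windows of the same length before 35116 RefSeq starts. CCAAT or its reverse complement ATTGG was in 21.1% of those windows, and GGGCGG or CCGCCC was in 34.6%. TATAAA or its reverse complement TTTATA, found in 5.87% of windows, was not in the stretch. These are matches of letters and not sites. On the array the transcripts started on either side of this stretch differed in size of ratio, with COL4A2 at −2.15 and COL4A1 at −0.36 for miR-140-5p, and at 1.19 and 0.67 for miR-125b-1-3p. With an offset of 0 the last 2 were closer, at 1.21 and 1.04.

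The laminin genes were read next, beginning with the α chains. LAMA3 encodes the α3 chain, which pairs with the product of LAMB3 in the laminin that anchors epithelial cells. Its brightest probe lies at chr18:21534735-21534794 of GRCh37. LAMA3 was at 0.40 with 24 h and 0.41 with 48 h of bisamide, and at 0.0008 with miR-125b-1-3p in the same line. In C4-2 the ratio was 0.27, in 786-O it was 0.068 for the 5p and −0.23 for the 3p strand, and in T24 it was 0.059 for the 3p strand. For miR-140-5p it was −0.48, from raw signals of 49.41 in the mock and 32.74 in treated cells. At such dim signals the size depends on the background correction, and LAMA3 was at −1.41 with an offset of 0 and at −1.58 by the scanner's own ratio. A second LAMA3 probe, at chr18:21375992-21376051, gave the same sign for bisamide, at 0.31 and 0.28. Its sign was opposite in C4-2, at −0.21, on the 786-O arrays, at −0.10 and 0.12, on the miR-125b-1-3p array, at −0.19, and on the miR-140-3p array, at −0.0089. On the miR-140-5p array it was at −0.13.

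LAMA5 encodes the α5 chain of the laminin that is widespread in epithelial basement membranes, together with the products of LAMB1 and LAMC1. Its probes disagreed. The brightest, assigned to an Ensembl transcript at chr20:60920556-60920615, had raw mock signals of 6676 to 14390 in all lines and ratios of −0.12 to 0.24. The probe of its RefSeq mRNA, at chr20:60885302-60885361, had ratios in PC3 of 0.41 and 0.37 for bisamide at 24 h and 48 h and 0.22 for miR-125b-1-3p. Its ratio was 0.13 in C4-2, −0.015 and −0.016 in 786-O for the 5p and 3p strands, and −0.060 and 0.31 in T24 for the same strands. Neither probe passed the threshold on any array.

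LAMB1, the β1 chain gene, had a ratio of 0.60 for miR-532-5p and −0.19 for its 3p strand in the same line. In T24 the ratios were −0.41 and 0.12 for the 5p and 3p strands of miR-140, in C4-2 the ratio was 0.39, and for miR-125b-1-3p it was 0.36. For bisamide the ratios were 0.11 and 0.099. With median centring all 9 genes lay above 0 on the miR-532-3p array, so the signs of LAMB1, LAMA3 and LAMA5 there depend on that step. With miR-140-5p LAMB1 read 477.3 in the mock and 570.5 in treated cells, so its sign there also rests on the normalization. These LAMB1 values come from the brightest of 3 probes, at chr7:107564411-107564470. A dim second probe lay between −0.033 and 0.13 on all 8 arrays, and the third was not well above background on any array.

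LAMB3 encodes the β3 chain. Its single probe lies at chr1:209788356-209788415. In PC3 its ratio was 0.53 and 0.34 for bisamide at 24 h and 48 h and 0.24 for miR-125b-1-3p. In 786-O it was 0.86 and 0.76 for the 5p and 3p strands, the 91st and 45th highest of the genes measured, and in T24 it was 0.44 for either strand. It was thus above 0 with every treatment that measured it, in 3 cell lines. No array has the dyes the other way round, so a probe that favours Cy5 and a rise with every treatment cannot be told apart. Less its median over the arrays of other treatments, LAMB3 was at 0.42 and 0.32 with the miR-532 strands and between −0.20 and 0.082 on the other 5 arrays.

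LAMC1 encodes the γ1 chain, which most laminins share. Its probe lies at chr1:183114406-183114465. In C4-2 it read 157.1 in the mock and 459.9 with miR-199-3p, a ratio of 0.86, and only 36 of 15686 genes were higher on that array. In T24 it read 216.9 in the mock and 207.8 with miR-140-5p, a ratio of −0.56, and 233.6 and 617.1 for the 3p strand, a ratio of 0.60. LAMC1 was thus low with one strand of miR-140 and high with the other. In 786-O its ratios were 0.48 and 0.56 for the 5p and 3p strands. In PC3 they were 0.30 for miR-125b-1-3p and 0.22 and 0.18 for bisamide at 24 h and 48 h. With an offset of 0 the value with miR-199-3p passed the threshold, at 1.01.

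The linkers NID1 and HSPG2 were read last. The probe of NID1 lies at chr1:236139154-236139213. In PC3 NID1 had ratios of −0.34 and −0.20 for bisamide at 24 h and 48 h, which were 0.15 and 0.30 with median centring, and of 0.33 for miR-125b-1-3p. For the 5p and 3p strands they were 0.31 and 0.15 in 786-O, and −0.29 and 0.16 in T24, where median centring put the first at 0.22. Its signs were those of both collagen IV genes on each of these 7 arrays, except that with median centring the collagen IV genes had no common sign for miR-140-5p.

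HSPG2, the perlecan gene, has 4 probes, and the brightest lies at chr1:22148740-22148799. Its ratio was −0.42 at 24 h of bisamide, or 0.38 with median centring, and 0.047 at 48 h. Its raw signals at 24 h were 1587 in the mock and 2183 in treated cells, and at 48 h they were 2721 and 5455, so the mock itself differed between the times. With the miRNAs HSPG2 lay between −0.17, for miR-532-5p, and 0.30, for miR-199-3p. It was at 0.0042 on the array of miR-140-3p, the strand whose seed match lies in this probe. The 3 other probes were dim, lay between −0.17 and 0.28 wherever they were well above background in both channels, and were not so on either T24 array.

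The arrays were then compared by how many of the 9 genes moved on each, beside the share of all measured genes past the threshold. For the counts on either side of 0, between 45.5% and 50% of all measured genes lay under 0 on an array. With miR-140-5p, 1 of 9 genes was lower by the threshold, COL4A2, against 0.323% of all genes, and none was higher, against 0.119%. Of the 9 genes, 7 lay under 0 and under the lower quartile of the array, and their median was −0.36, against 0.0095 for all genes. The exceptions were LAMA5, by its brightest probe, and LAMB3. The RefSeq mRNA probe of LAMA5 was at −0.060, under 0 but not under the lower quartile. The scanner's own ratio put 8 of 9 under 0. With median centring in place of loess the median of all genes on this array moved to 0.35 and that of the 9 genes to 0.15, so that 4 of the 9 lay under 0 and 7 under the median of all genes. COL4A2 was at −1.40 in that setting, second from the lowest.

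With miR-140-3p none of the 9 genes passed the threshold, against 0.0856% of all genes lower and 0.0913% higher. All 9 lay above 0, between 0.0042 and 0.60, and 6 lay above the upper quartile. The scanner's own ratio put 1 of the 9 under 0. Less the median over the arrays of other treatments, 2 of 9 lay under 0 and the median of the 9 went from 0.16 to 0.019.

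With miR-125b-1-3p, 1 of 9 genes, COL4A2, was higher by the threshold, against 0.112% of all genes, and none was lower, against 0.0642%. All 9 lay above 0, and the 8 other than LAMA3 lay above the upper quartile. The median of the 9 was 0.30, against 0.016 for all genes. LAMA3, at 0.0008, lay under 0 with an offset of 0, with plain subtraction, by the scanner's ratio and as the mean of its probes. Less the median over the arrays of other treatments, 3 of 9 lay under 0 and the median was 0.23.

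On the miR-532-5p array 8 of 9 genes lay above 0, with a median of 0.42, and none passed the threshold, against 0.447% of all genes lower and 0.351% higher. On the miR-532-3p array 6 of 9 lay above 0, with a median of 0.16, or all 9 with median centring, and none passed, against 0.55% lower and 0.0907% higher. Of all genes measured on it 50% lay under 0, so a count of 6 of 9 is near the share over all genes. In C4-2 all 6 measured genes lay above 0, with a median of 0.28, or 5 of 6 by the scanner's own ratio, and none passed, against 0.536% lower and 0.115% higher. Of all genes measured there 47.3% lay under 0.

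The genes were split on the bisamide arrays. The shares past the threshold over all genes were 0.0156% lower and 0.182% higher at 24 h, and 0.021% lower and 0.0946% higher at 48 h, and none of the 9 passed at either time. At 24 h COL4A1, COL4A2, NID1 and HSPG2 lay under 0 and under the lower quartile, while the 5 laminin genes lay above the upper quartile. At 48 h COL4A1, COL4A2 and NID1 again lay under the lower quartile, and LAMA3, LAMB3 and LAMC1 above the upper one. Median centring raised the median of all genes to 0.45 and 0.44 on these arrays and put all 9 genes above 0, with 3 of them under the median of all genes at 24 h and 2 at 48 h. Less the median over the arrays of other treatments the genes moved the other way, with 6 of 9 under 0 at 24 h and 7 at 48 h, and their median went from 0.11 to −0.30 and from 0.084 to −0.14. The mocks of these arrays came from separate extracts, by the identifiers in the deposited names.

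**Figure D3:**
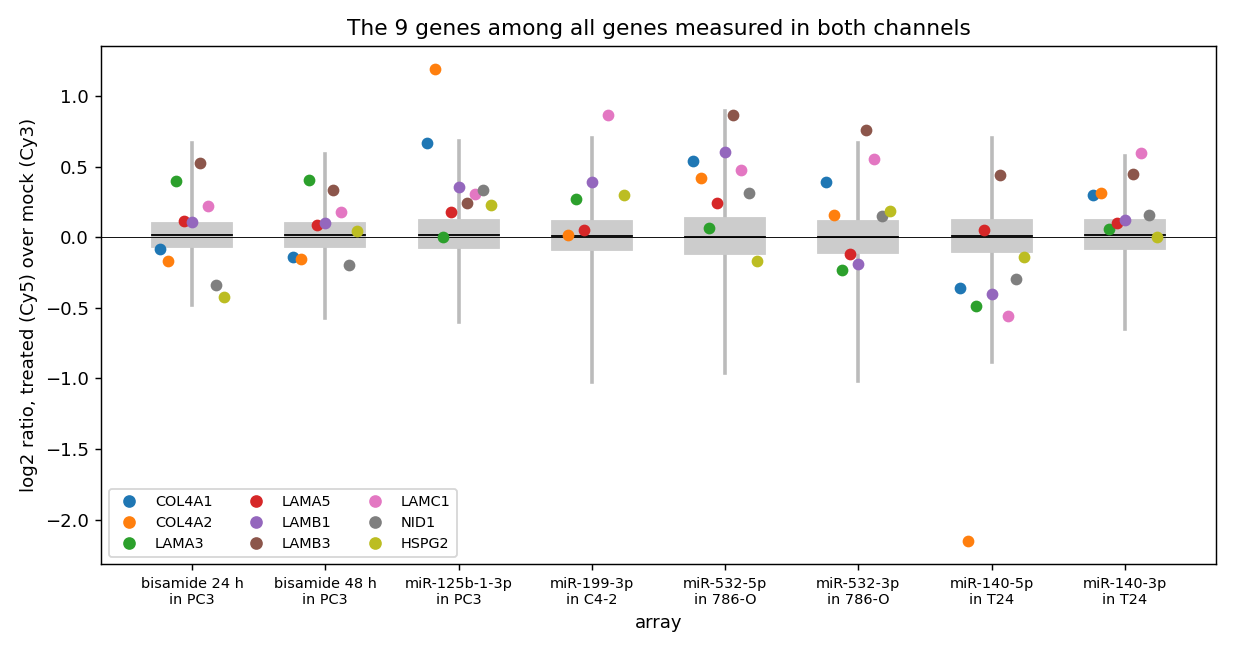
Log2 ratio of treated (Cy5) over mock (Cy3) RNA on each array, with coloured points for the genes measured in both channels. Grey boxes span the quartiles of all measured genes, black lines their median, and thin grey bars the central 99%. With miR-140-5p 7 of 9 points lie under the box, and with miR-125b-1-3p 8 of 9 lie above it.

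To see how the strands of 1 duplex compared, the arrays of the same line were set side by side. The T24 arrays share a mock extract by the identifiers in the deposited names, and so do the 786-O arrays. Their mock readings differed by an SD of 0.0664 and 0.0863 on the log2 scale across genes, whereas PC3 mocks differed by 0.153 to 0.228 and mocks of different lines by 0.612 to 0.856. Between the strands of miR-140, 2 of 9 genes differed by the threshold in size, against 0.683% of 16992 genes measured on both arrays. These were COL4A2, which was 2.46 lower with the 5p strand, and LAMC1, which was 1.16 lower. COL4A1 was 0.66 lower with the 5p strand, LAMA3 0.54, LAMB1 0.53 and NID1 0.45. LAMB3 differed by −0.0011 and LAMA5 by −0.054. The mock readings of these genes differed by no more than 0.089 between the arrays. Between the strands of miR-532 none of the 9 passed, against 1.14% of 14847 genes, and the largest difference was 0.79 for LAMB1, which was higher with the 5p strand. Since each strand had 1 array, the spread between cultures is not known for any of these differences.

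**Figure D4:**
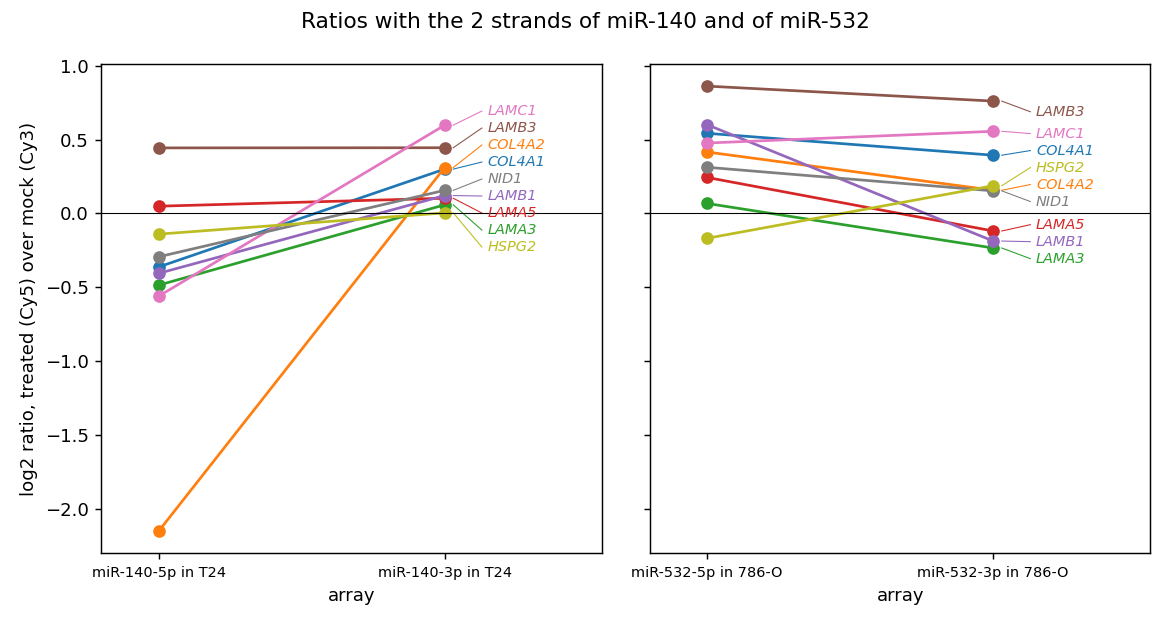
Log2 ratio of each of the 9 genes with the 5p and the 3p strand of miR-140 in T24 (left) and of miR-532 in 786-O (right), joined by a line per gene. The line of COL4A2 spans −2.15 to 0.31 for miR-140, and LAMB3 is at 0.44 with both strands.

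The mock channel was read to compare the untreated lines. First the lines were checked against markers. In C4-2 all 5 prostate luminal markers were well above background, among them KLK3 at a raw signal of 13590. In PC3 3 of the 5 were, without KLK3 and KLK2. In 786-O the renal factors PAX8 and PAX2 were well above background and CA9 was not. In T24 none of the 4 urothelial markers was, and PAX8 and PAX2 were, at 390.3 to 619. On the quantile normalized log2 scale used below, PAX2 was at 9.08 in T24 and 7.79 in 786-O, and PAX8 at 8.59 and 8.74. The renal and urothelial markers thus did not tell T24 from 786-O. The lines are named by their labels, and their identity was not tested. Of 4 epithelial markers all were well above background in C4-2 and 3 in each other line, where CDH1 was the exception. Of 3 mesenchymal markers all were well above background in the other lines and 1 in C4-2, VIM, at 453.3 against 9119 to 17620 elsewhere. The fibroblast markers DCN, LUM and COL3A1 were not well above background in any line. PTPRC, a leukocyte gene, was well above background in all lines, at dim signals of 27.27 to 36.52. The 3 endothelial markers read 17.76 to 38.09. Of these, 2 were well above background in PC3, 2 in T24, 1 in C4-2 and none in 786-O.

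Levels of 1 probe were compared between lines after quantile normalization of the Cy3 channels. Of the 6 genes well above background in every line, 5 spanned over 2-fold between the highest and the lowest line, against 33.7% of 12744 genes. Their median span was 2.31 on the log2 scale, against 0.75 over all genes. These levels were among the values on which the genes were chosen. The PC3 level is a mean of 3 mocks, and each other line counts as 1 sample, so that only PC3 has a spread. In bulk RNA, a smaller share of expressing cells and less RNA per cell cannot be told apart.

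COL4A1 and COL4A2 were high in 786-O and T24 and low in C4-2. COL4A5, another collagen IV chain, went another way, at 8.20 in PC3, 8.06 in C4-2, 6.86 in T24 and 6.39 in 786-O. COL4A6 was well above background in PC3 alone. COL4A2 was at 10.92 in T24, 10.74 in 786-O, 9.31 ± 0.22 in PC3 (SD, n = 3) and 6.55 in C4-2. It was thus 20.7-fold higher in T24 than in C4-2, while T24 and 786-O differed by 0.18, less than the SD of the PC3 mocks. The single C4-2 reading was dim, at a raw signal of 45.26, so the size of that fold depends on the offset. COL4A1 was at 7.93 in T24, 0.077 above that in 786-O and at 6.49 ± 0.12 in PC3 (SD, n = 3). In C4-2 COL4A1 was not well above background, so it was at least 4.19-fold higher in 786-O and at least 3.98-fold higher in T24 than in C4-2. For such a bound the dim line was given its own level or, where that was higher, the lowest level of any probe well above background.

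Laminin levels differed between the lines in other orders. LAMB1 was at 11.13 in 786-O, 9.91 ± 0.10 in PC3 (SD, n = 3), 8.80 in T24 and 8.72 in C4-2, and the last 2 differed by less than the SD of the PC3 mocks. Its dim second probe lay between 6.07 and 6.20 in all lines. LAMC1 was at 9.13 in 786-O, 8.19 in C4-2, 7.83 in T24 and 6.91 ± 0.27 in PC3 (SD, n = 3). LAMC1 was thus the gene for which PC3, and not C4-2 or T24, was lowest. LAMA3 was at 8.48 ± 0.26 in PC3 (SD, n = 3), 8.47 in C4-2, 8.40 in 786-O and 6.30 in T24. By its brightest probe the first 3 lines did not differ beyond the SD of the PC3 mocks, and T24 lay 2.10 under 786-O. The T24 signals were dim, at 45.86 and 49.41, so that gap depends on the offset. A dimmer LAMA3 probe was at 6.73 ± 0.19 in PC3 (SD, n = 3), 6.42 in 786-O, 6.30 in C4-2 and 5.94 in T24. By that probe PC3 lay above each other line by more than its SD. LAMB3 was at 10.88 in 786-O, 8.85 ± 0.77 in PC3 (SD, n = 3) and 7.69 in T24. It was not well above background in C4-2, and was at least 31.3-fold higher in 786-O, 7.66-fold higher in PC3 and 3.45-fold higher in T24 than there.

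LAMA5 by its brightest probe spanned 0.17 over the lines, between 13.28 and 13.45. By the RefSeq mRNA probe it was at 7.66 in T24, 7.28 ± 0.10 in PC3 (SD, n = 3), 6.71 in C4-2 and 6.19 in 786-O, so that its span was past 2-fold and the count became 6 genes.

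Of the linkers, HSPG2 was at 10.79 in 786-O and 10.79 ± 0.65 in PC3 (SD, n = 3), 7.22 in C4-2 and 6.15 in T24, a span of 24.9-fold. That span rests on dim T24 signals of 36.8 and 42.15, so it depends on the offset. The other HSPG2 probes were dim or not well above background, and lay between 5.74 and 6.11 in all lines. NID1 was at 7.95 in T24, 7.25 ± 0.35 in PC3 (SD, n = 3) and 6.68 in 786-O, and was not well above background in C4-2. It was at least 4.11-fold higher in T24 than in C4-2. T24 was thus the highest line for NID1 and the lowest for HSPG2.

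The PC3 mocks themselves differed most in LAMB3 and HSPG2. LAMB3 read 818.6, 302.8 and 982.9 in the mocks of the 24 h bisamide, 48 h bisamide and miR-125b-1-3p arrays, and HSPG2 read 1587, 2721 and 3864. The epithelial marker EPCAM also varied, from 119.3 to 476.5. A ratio of these genes in PC3 therefore rests on a mock that moved by more than 2-fold between extracts, and the part of this in the ratios was not tested.

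**Figure D5:**
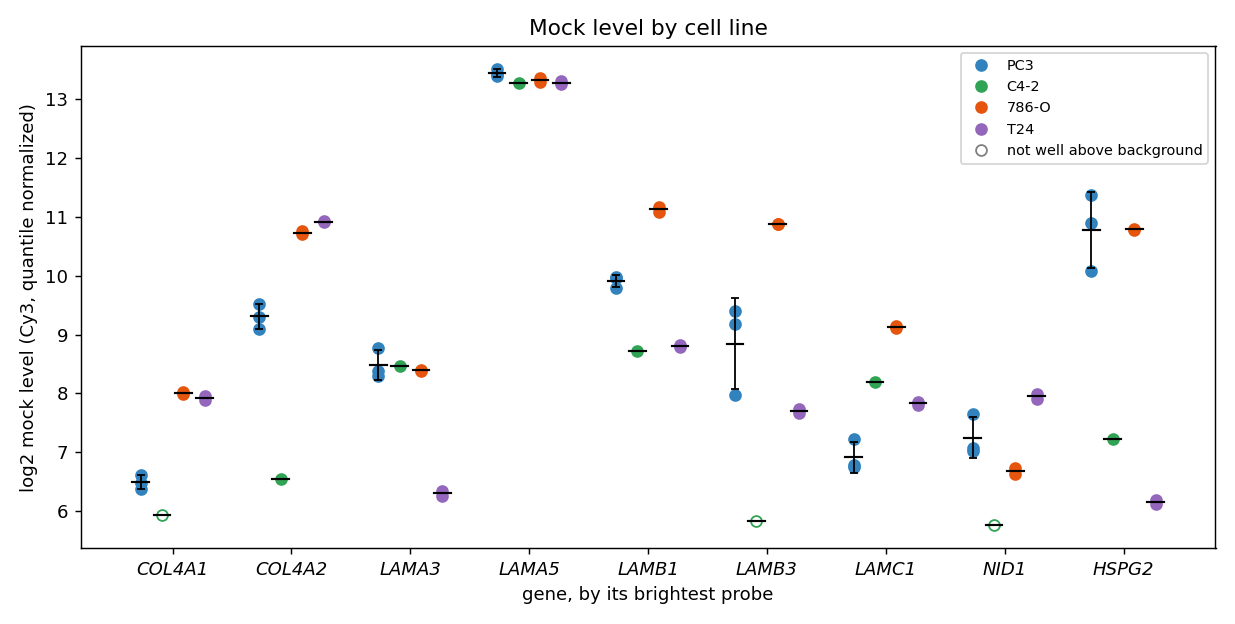
Log2 mock level (Cy3, quantile normalized) of each gene in 4 cell lines, by its brightest probe; points are arrays, short lines the mean of a line, bars the SD of the 3 PC3 mocks, and open points readings not well above background. COL4A1 and COL4A2 are lowest in C4-2, with COL4A2 at 6.55 against 10.92 in T24, and LAMA3 and HSPG2 are lowest in T24.

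Other genes of the basement membrane were read from lists. Of the other collagen IV chains, COL4A3 was not measured on any array. COL4A5 and COL4A6 were at 0.46 and 0.67 on the miR-125b-1-3p array, and COL4A4 and COL4A5 at −0.26 and −0.13 on the miR-140-5p array. On the miR-140-3p array COL4A4 was at −0.20, opposite in sign to COL4A1 and COL4A2, and COL4A5 at 0.24. For bisamide at 24 h and 48 h COL4A5 was at 0.17 and 0.20, opposite to COL4A1 and COL4A2, and COL4A6 at −0.21 and −0.20. None of these chains passed the threshold. Of the 7 other laminin chains, 2 to 4 were measured on an array and none passed.

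Of 13 other basement membrane proteins, 6 to 10 were measured on an array, and 1 was lower and 1 higher by the threshold. COL18A1, the gene of the collagen that yields endostatin, had a ratio of −1.58 with miR-140-5p, or −0.58 with median centring. It was at 0.95 with miR-125b-1-3p, the same signs as COL4A2 on these arrays. COL18A1 also had the sign of COL4A2 with miR-532-5p, at 0.18, and with miR-199-3p, at 0.082. Its sign was opposite for bisamide, at 0.19 and 0.41 for 24 h and 48 h. It was also opposite for miR-140-3p, at −0.39, and for miR-532-3p, at −0.23. SPARC, which encodes a collagen-binding matrix protein, was at 1.11 with miR-532-5p. On the miR-140-5p array the list had a median of −0.096 over 8 genes, against −0.36 for the 9 genes.

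Of 14 genes of collagen assembly and crosslinking on the array, 12 to 14 were measured. PXDN, the peroxidase that crosslinks collagen IV, was at 1.56 with miR-140-5p, from raw signals of 31.53 in the mock and 203.6 in treated cells, and at 1.25 to 3.45 in the other settings. The RNA of PXDN was thus high on the array where COL4A2 was low. The list as a whole had a median of 0.0011 there, with 6 of 13 genes under 0. PLOD3, a lysyl hydroxylase, was at −1.11 with miR-125b-1-3p, and at −0.45 with median centring.

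Of 11 receptors of laminin and collagen IV, 6 to 11 were measured. ITGB4, the integrin β4 chain of hemidesmosomes, was at 1.24 at 24 h and 1.42 at 48 h of bisamide, from raw signals of 657.1 in the mock and 2889 in treated cells at 24 h, and of 1049 and 5372 at 48 h. CD151, a tetraspanin that binds laminin-binding integrins, was at −1.98 with miR-199-3p. ITGA7, an integrin α chain, was at 1.05 with miR-125b-1-3p.

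The 13 genes of interstitial matrix were read for contrast, and none of the 5 to 11 measured on an array passed. Their median was 0.0084 with miR-140-5p, where the 9 genes had −0.36, and 0.41 with miR-125b-1-3p, where the 9 genes had 0.30. All 10 of the interstitial genes measured with miR-125b-1-3p lay above 0, and 3 of 6 measured with miR-140-5p did.

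Genes with a pattern most like COL4A2 over the 8 arrays, among 12578 others measured on all of them, were TIMM8B, TMEM185A, ZBED5-AS1, RRAS and YES1, with Pearson's r of 0.97, 0.96, 0.96, 0.95 and 0.95. LAMC1 ranked 380th in that order, at 0.75, and LAMB1 429th, at 0.73. For LAMC1, the laminin chain with the largest ratio by loess at an offset of 50, the nearest were CNN2, TMEM50B, MRPL43, BCORL1 and MAGED1, at 0.97 to 0.95, and COL4A2 ranked 323rd. LAMB3 also reached 0.86 but was not measured on all 8 arrays, and LAMA3 passed LAMC1 in size with an offset of 0. These values describe 8 arrays, some of which share a mock, and for COL4A2 the miR-140-5p array lies farthest from the rest.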

How the data were processed

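Cell line RNA was hybridised to 8 two-colour arrays, 1 in each group. Per the file headers, the authors' scanner software, Agilent Feature Extraction 11.5.1.1, gave the deposited intensity of each spot and of its local background, not normalized. The deposited log10 ratio of Cy5 over Cy3 in the scanner files and the series table, which held the same values, was made by that software after background subtraction and dye normalization. Probe coordinates are those of GRCh37 in the files, and no annotation of that build was used here, so the exon or UTR of a probe is not given.

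Intensities were corrected by normexp in limma 3.58.1 under R 4.3.3, at an offset of 50, and then normalized by loess within each array, which gave log2 ratios. These steps were tested on simulated data, scored in bright genes alone, so dim signals such as several of those here were not covered. Control spots were left out, as were 126 to 181 outlier spots on an array. Spots of a probe were averaged, and the brightest of a gene's probes stood for it. No spot was saturated. Cy3 levels were quantile normalized over the 8 arrays. Since each group had a lone array, p-values were not computed, and precision is bounded by the number of arrays.

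The members and lists were chosen with earlier results of these data known. The text names all 9 members, related genes past 1.0, and the 5 genes most like COL4A2 and LAMC1, the chains with the largest ratio at these settings. A few list members besides these were named after their values were seen. P3H1 was read in place of its older symbol, and CD68 was not analysed here.

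Alternatives were an offset of 0, plain subtraction, no background correction, median centring, the scanner's ratio, the series table, other probe, filter and threshold rules, each ratio less its median over other treatments, and leaving out each PC3 mock. LAMA5 by its RefSeq mRNA probe was added after seeing the data.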

Additional observations from a re-analysis of the deposited data

How the results depend on the processing

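COL4A2 kept its direction on both arrays where it passed the threshold. COL4A2 with miR-140-5p ranged from −2.31 to −1.40 and with miR-125b-1-3p from 1.18 to 1.90. The counts of genes past the threshold did change. With miR-140-5p, 2 genes were lower under an offset of 0, plain subtraction, the scanner's ratio, the series table, the ratio less its median over other treatments and a threshold of 0.5, against 1. With miR-125b-1-3p, 2 were higher under the first 4 of these and at 0.5, and 0 at 1.5, against 1. With miR-199-3p, 1 was higher under an offset of 0, plain subtraction, median centring and 0.5, against 0. A threshold of 0.5 gave 1 higher gene at 24 h of bisamide, 3 and 2 for the 5p and 3p strands of miR-532 and 1 for miR-140-3p, against 0 in each. Median centring, which moved the median of all genes by up to 0.45, gave 3 higher at 24 h and 2 at 48 h of bisamide, 5 on the miR-125b-1-3p array, 1 on that of miR-532-3p, and 1 and 4 for the 5p and 3p strands of miR-140. The cause was not tested. The share of all genes past the threshold is not given for these other settings and thresholds. Whether their counts exceed that share therefore cannot be read from them. The genes spanning over 2-fold between lines numbered 4 to 6 in every setting, and 5 without each PC3 mock in turn. No paired analysis was possible because no group has a second array. Signal over background limits COL4A1, LAMB3 and NID1 in C4-2, whose ratios there enter no count but that without a filter.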
